A study of Mus musculus with 14 samples.

Results

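Cytokines of the interleukin 6 family, the receptor chains they share and the first genes downstream of them were followed in Y1 cells, a mouse adrenocortical tumour cell line, with and without FGF-2. The 10 genes were taken from a fixed list of names: the ligands Il11, Lif, Il6 and Clcf1, the receptor chains Il6st, Lifr, Il11ra1 and Osmr, and the downstream genes Stat3 and Socs3. They are 10 of 24465 genes in the RNA count files, and 9 of them name 47 of the 40772 regions in the deposited H3K27ac table. The rule takes the genes by name, and the names were chosen with earlier results of these data known.

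Both groups went 48 h without serum before 5 h in 10% fetal bovine serum. In one, serum came alone, and in the other with 10 ng/ml FGF-2, a growth factor that signals through receptor tyrosine kinases. No group without serum was analysed here. Polyadenylated RNA was read in 3 libraries per group and H3K27ac, a histone mark of active promoters and enhancers, in 2 libraries per group. The question is which members differed when FGF-2 was added to serum.

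Ligands of this family bind a specific receptor chain and then gp130, the product of Il6st, which is the chain that passes the signal on. Gp130 activates JAK kinases, which phosphorylate the transcription factor STAT3, and STAT3 in turn induces SOCS3, an inhibitor that binds gp130 and shuts the signal down. A cell that lacks a chain that a ligand needs besides gp130, such as LIFR for LIF, cannot respond to that ligand through its membrane receptors.

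The RNA libraries held between 5625004 and 12696426 counts in genes. CPM are the counts of a gene scaled to a common library size. By library totals alone, 3 counts, the upper limit that a count of 0 allows, correspond to 0.236 to 0.533 CPM. With the scaling used for the CPM values below, 3 counts were 0.265 CPM in FGF-2 library 2 and 0.543 CPM in FGF-2 library 3. Serum library 3 stood apart from the other serum libraries: on the first principal component it lay at -30.3, against -56.9 and -54.0, while the FGF-2 libraries lay between 39.4 and 57.5. Of 8 adrenocortical markers, 6 were high enough to test. The ACTH receptor gene Mc2r was near 0, at 0.126 ± 0.112 CPM in serum and 0.124 ± 0.108 CPM with FGF-2 (SD, n = 3). Hsd3b1 was also too low to test, at 1.00 ± 0.86 and 0.616 ± 0.15 CPM. The summed level of the adrenocortical markers ran from 664 to 911 CPM in serum and from 2267 to 3752 CPM with FGF-2. Of 6 tested, Star alone rose, from 165 ± 101 to 2296 ± 764 CPM. Cyp11a1 and Cyp11b1 fell (124 to 73.7 and 9.24 to 3.45 CPM), and Nr5a1, Scarb1 and Fdx1 did not pass. The Cyp11a1 groups overlapped, and its fall was close to the cutoff (edgeR adjusted p = 0.0454). Of the fibroblast and capsule markers, which summed to 2772 to 3495 CPM and 2021 to 2899 CPM, Col1a2 and Dcn had 0 counts in every library, and Col1a1 made up most of the sum. Markers of endothelium summed to 4.68 to 9.58 CPM, of macrophages and blood to 5.26 to 11.1 CPM and of the adrenal medulla to at most 7.02 CPM over all 6 libraries, with Tek, Adgre1, Th and Dbh at 0 in each. The part of other cell types in the results was not tested. In bulk RNA, fewer cells of a type and less RNA per cell cannot be told apart. Nothing in the labels says that the libraries come from separate cultures, so p-values measure the spread between these libraries.

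The promoter sequences of 3 members are shown because H3K27ac regions lie at or beside each, and because each holds a match to a searched motif. Each is the 250 bases before a RefSeq start (GRCm38.p6, the same assembly as mm10), 5′ to 3′ on the strand of the gene, with the motif match in capitals. The Il11 sequence precedes the inner of 2 starts, at chr7:4778142-4778391 on the minus strand. Lif lies on the plus strand, at chr11:4257318-4257567, and Socs3 on the minus strand, at chr11:117969367-117969616.
Il11: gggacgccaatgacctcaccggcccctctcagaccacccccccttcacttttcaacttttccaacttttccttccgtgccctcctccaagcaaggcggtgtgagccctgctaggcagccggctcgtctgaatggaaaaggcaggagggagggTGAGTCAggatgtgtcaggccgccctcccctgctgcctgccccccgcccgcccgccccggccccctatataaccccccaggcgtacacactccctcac
Lif: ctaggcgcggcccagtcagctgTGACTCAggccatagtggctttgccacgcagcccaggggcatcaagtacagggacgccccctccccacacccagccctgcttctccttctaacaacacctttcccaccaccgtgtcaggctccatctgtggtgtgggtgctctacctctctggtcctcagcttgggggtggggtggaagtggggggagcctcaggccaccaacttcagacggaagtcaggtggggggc
Socs3: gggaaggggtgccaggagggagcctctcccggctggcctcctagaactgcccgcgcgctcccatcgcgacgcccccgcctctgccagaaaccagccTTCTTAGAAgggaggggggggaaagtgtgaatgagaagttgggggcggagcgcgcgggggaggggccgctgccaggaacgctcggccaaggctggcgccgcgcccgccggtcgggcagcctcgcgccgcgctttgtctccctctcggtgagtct
Il11 and Lif each hold an AP-1 motif, TGANTCA. The match is TGAGTCA at bases 98 to 92 before the start in Il11 and TGACTCA at bases 228 to 222 in Lif. Socs3 holds a STAT motif, TTCNNNGAA, as TTCTTAGAA at bases 154 to 146 before the start. Il6, whose promoter is not shown, also has an AP-1 match, at bases 249 to 243 before its start. Of 32851 RefSeq promoters searched over the same length on both strands, 6.75% hold AP-1 and 7.02% hold STAT. Matches to ETS (CCGGAANT) and to the cyclic AMP response element (TGACGTCA), held by 4.36% and 1.55% of promoters, were found in none of the 12 entries of the 9 matched members. No entry had more than 1 match, and the 250 bases before the outer Il11 start had none. These matches describe letters in the window and are not evidence of binding.

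**Figure D1:**
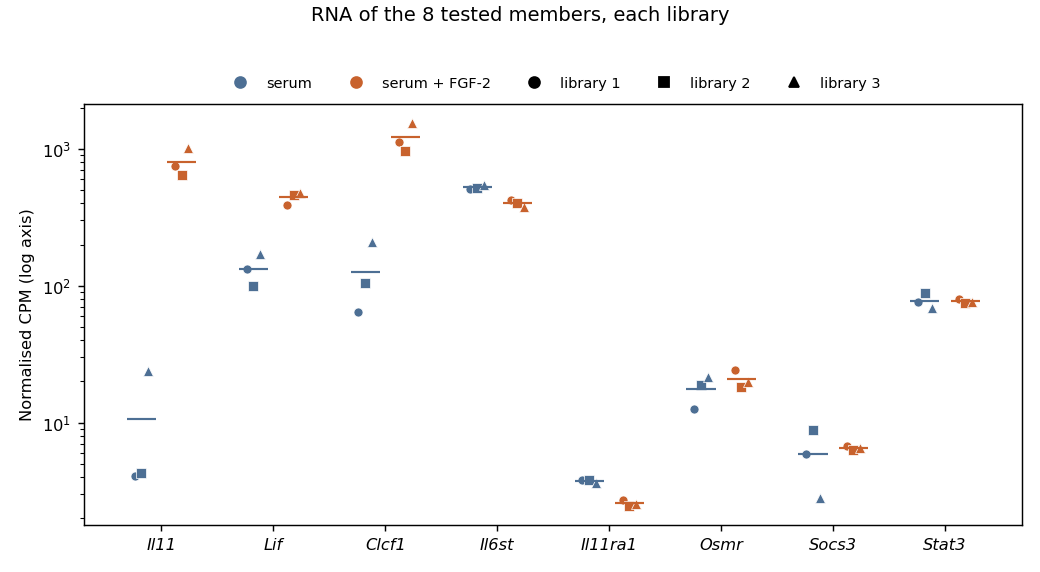
Normalised CPM (log axis) of the 8 tested members in each RNA library, coloured by group, with marker shape for the library number and a line at the group mean. Il11, Lif and Clcf1 with FGF-2 lie above every serum library, Il6st and Il11ra1 below, and Osmr, Socs3 and Stat3 overlap.

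Among the ligands, Il11, Clcf1 and Lif rose and Il6 stayed at a few counts. Il11 (chr7:4772373-4782907, minus strand) encodes interleukin 11, which signals through IL11RA and gp130. It stood at 4.11, 4.26 and 23.7 CPM in serum and at 757, 649 and 1015 CPM with FGF-2. Serum library 3 was the highest of its group, and the lowest FGF-2 library was still 27.3 times higher. The log2 fold change was 6.35 ± 0.81 (SE, edgeR adjusted p = 0.00223), ranked 9 from the top of 10374 tested genes. Leaving out serum library 3 moved it to 7.58, and leaving out each other library gave values from 5.91 to 6.48.

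Clcf1 (chr19:4214238-4223505) encodes cardiotrophin-like cytokine factor 1, a ligand of the CNTF receptor complex. Its serum libraries had 64.5, 104.5 and 209.6 CPM and its FGF-2 libraries 1116, 968 and 1555 CPM. The groups did not overlap, and again serum library 3 was the highest in serum. The mean went from 126 ± 74.9 to 1213 ± 305 CPM (SD, n = 3), a log2 fold change of 3.27 ± 0.47 (edgeR adjusted p = 0.00191).

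Lif (chr11:4257568-4272514, plus strand) encodes leukaemia inhibitory factor, which binds LIFR and gp130. It had 132, 99.0 and 170 CPM in serum and 390, 463 and 474 CPM with FGF-2. Every FGF-2 library lay above every serum library, the nearest pair differing 2.29 times. The log2 fold change was 1.73 ± 0.19 (edgeR adjusted p = 0.00012), from a mean of 134 ± 35.6 to 442 ± 45.6 CPM (SD, n = 3). Serum library 3 was also the highest of its group for Lif, so all of the ligands that rose had their highest serum value in that library. FGF-2 library 3 was likewise the highest of its group for Il11, Clcf1 and Lif, at 1015, 1555 and 474 CPM. Both libraries numbered 3 held the fewest counts of their group, 5625004 in serum and 6403095 with FGF-2. They also had the lowest scaling factor of their group, 1.07 and 0.864. For Lif, FGF-2 library 3 was little above FGF-2 library 2 (474 against 463 CPM), an order that depends on the scaling.

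Il6, the founding ligand of the family, had 3, 0 and 1 counts in serum and 3, 3 and 3 with FGF-2 and was too low to test. From the summed counts of 4 and 9, scaled to library size, FGF-2 over serum was 1.70 (exact 95% counting interval 0.473 to 7.53). No difference in Il6 was detectable at this depth.

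Of the receptor chains, Il6st fell slightly, Il11ra1 and Osmr did not pass the test and Lifr was close to 0. Il6st (chr13:112464070-112506860, plus strand), which encodes gp130, had 508, 519 and 547 CPM in serum and 422, 404 and 378 CPM with FGF-2. The groups did not overlap, and the spread within each was small. The log2 fold change was -0.39 ± 0.11 (edgeR adjusted p = 0.0158), and without serum library 2 the adjusted p was 0.0585.

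Il11ra1 (chr4:41760443-41769473, plus strand), the specific receptor chain of interleukin 11, was low at 3.82, 3.83 and 3.65 CPM in serum and 2.73, 2.47 and 2.53 CPM with FGF-2. All FGF-2 values lay under all serum values, but the log2 fold change of -0.55 ± 0.24 did not pass (edgeR adjusted p = 0.0831). It passed when libraries were scaled by the upper quartile (-0.69, adjusted p = 0.0366) or by their totals alone (-0.89, adjusted p = 0.0116). Its close copy Il11ra2 had 0 counts in all 6 libraries. How reads shared by the copies were counted is not given in the sources used here.

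Osmr, which encodes the oncostatin M receptor chain, overlapped between the groups, with 12.6, 18.8 and 21.6 CPM in serum and 24.2, 18.3 and 19.9 CPM with FGF-2. Its log2 fold change was 0.25 ± 0.20 (edgeR adjusted p = 0.33). Lifr, which encodes a chain that LIF needs and shares with other ligands, had 2, 1 and 0 counts in serum and 1, 3 and 0 with FGF-2. From the summed counts of 3 and 4, FGF-2 over serum was 1.00 (exact 95% counting interval 0.170 to 6.86). Lif transcripts were thus abundant in libraries in which Lifr had at most 3 counts. Whether the way reads were counted lowers the Lifr counts was not tested.

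Downstream of gp130, Stat3 and Socs3 did not pass the test. Stat3 had 76.6, 88.1 and 68.9 CPM in serum and 80.3, 74.3 and 76.4 CPM with FGF-2, with the FGF-2 values inside the serum range. Its log2 fold change was -0.018 ± 0.12 (edgeR adjusted p = 0.91), and with library totals as the only scaling it was called lower (-0.36, adjusted p = 0.038). Socs3 had 5.93, 8.83 and 2.82 CPM in serum and 6.73, 6.27 and 6.52 CPM with FGF-2, a log2 fold change of 0.11 ± 0.32 (edgeR adjusted p = 0.808). Serum library 3, the highest serum library for the ligands that rose, was the lowest of all 6 for Socs3.

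Of the 10 members, 8 passed the filter on low counts. Of these 8, 3 rose and 1 fell, where 22.1% of all tested genes rose and 24.2% fell. That is 2295 and 2512 genes, which became 1616 and 3320 with upper-quartile scaling and 1035 and 4675 with library totals as the only scaling. In 5 of the 8 the groups did not overlap, against 57.5% of all tested genes. The median log2 fold change of the 8 was 0.18, and -0.023 over all tested genes. These counts are near those of all genes, and the size of the Il11, Clcf1 and Lif differences carries the result. Each of the 3 rose in all 14 other settings of the analysis, with log2 fold changes of 5.91 to 7.58, 2.94 to 3.84 and 1.40 to 1.94. Il6st was called lower in 12 of the 14. Without serum library 3, again 3 members rose and 1 fell.

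The rest of the pathway was read from 5 lists of 63 other genes, 42 of them tested. Together 25 rose, 8 fell and 9 did not pass, where 22.1% of all tested genes rose and 24.2% fell. Their median log2 fold change was 0.44. The lists were chosen with earlier results of these data known, so their shares are descriptive only. Among 8 other ligands and partners, 2 were tested, of which 1 rose and 1 fell. Ctf1, which encodes cardiotrophin 1, fell from 3.50 ± 0.95 to 1.95 ± 0.58 CPM (edgeR adjusted p = 0.0428), a call that was lost on leaving out any of 4 libraries: serum 1 and 2 (adjusted p = 0.183 and 0.0671) and FGF-2 1 and 2 (0.156 and 0.0961). Osm, the ligand of OSMR, was at 0 counts in all serum libraries and too low to test.

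Among 5 other receptor chains, 2 were tested. Il6ra, the specific chain of interleukin 6, rose from 74.9 ± 17.0 to 119 ± 31.0 CPM (SD, n = 3; edgeR adjusted p = 0.0373). Cntfr, the specific chain of the CNTF receptor complex, fell from 20.2 ± 3.49 to 13.4 ± 2.06 CPM (edgeR adjusted p = 0.0222). Both calls were fragile. The adjusted p of Il6ra was 0.068, 0.0947 and 0.0943 without serum libraries 1 and 2 and FGF-2 library 2, and 0.205 with library totals as the only scaling. That of Cntfr was 0.09, 0.0602, 0.072 and 0.0582 without serum libraries 1 and 3 and FGF-2 libraries 1 and 3.

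Of 8 tested kinases and other STATs, 1 rose and 3 fell, with a median log2 fold change of -0.20. Jak2, a kinase bound to gp130, rose by 0.58 ± 0.14 on the log2 scale. It did not pass with library totals as the only scaling. Jak3, the kinase of the common gamma chain, had a log2 fold change of -1.32 ± 0.19, Stat5b -1.19 ± 0.15 and Stat2 -0.99 ± 0.16, and these fell under every setting. Jak1 and Tyk2, the other kinases that gp130 uses, had log2 fold changes of 0.14 ± 0.11 and -0.38 ± 0.20 and did not pass. Without serum library 3, Tyk2 did (-0.54, edgeR adjusted p = 0.0332).

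Of 15 tested negative regulators, 12 rose and 1 fell, beside 22.1% and 24.2% of all tested genes. Their median log2 fold change was 0.60. Cish, an inhibitor of STAT5 signalling, rose from 1.35 ± 0.73 CPM in serum, where its highest library had 2.16, to 40.8 ± 14.9 CPM with FGF-2, where its lowest had 26.6 (SD, n = 3). Its log2 fold change was 4.99 ± 0.41 (edgeR adjusted p = 8.22e-05). Trib1, a pseudokinase, rose from 15.2 ± 2.36 to 148.5 ± 45.3 CPM and Socs5 from 112 ± 59.4 to 669 ± 130 CPM (SD, n = 3). Socs1, an inhibitor of JAK kinases, rose by 2.28 ± 0.22 on the log2 scale, while Socs3 did not pass. Whether Socs1 and Socs3 differ in their response was not tested. Ptpn6, a phosphatase at 3.36 ± 2.01 and 1.42 ± 0.21 CPM, was called lower, but its groups overlapped, and the call was lost without any of 5 libraries (adjusted p = 0.0686 to 0.197). Only 7 of the 15 rose with library totals as the only scaling, where the median of all genes moved to -0.36.

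Of 24 listed targets of STAT3, 15 were tested, 10 rose and 2 fell, beside 22.1% and 24.2% of all tested genes. Their median log2 fold change was 0.72. The listed STAT3 targets are induced by other pathways too, Fos and Junb among them. Pim1, a kinase, had 22.0, 29.7 and 46.5 CPM in serum and 370, 388 and 463 CPM with FGF-2, a log2 fold change of 3.65 ± 0.26. Vegfa, an angiogenic growth factor, rose from 193 ± 84.8 to 2113 ± 230 CPM and Timp1, a protease inhibitor, from 856 ± 496 to 5828 ± 318 CPM (SD, n = 3). Icam1, an adhesion molecule, and Bcl3, a partner of NF-kappaB, fell with log2 fold changes of -1.89 ± 0.30 and -1.23 ± 0.18. Pim1, like Il11, Lif and Clcf1, had its highest value in library 3 within serum and also within the FGF-2 group.

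**Figure D2:**
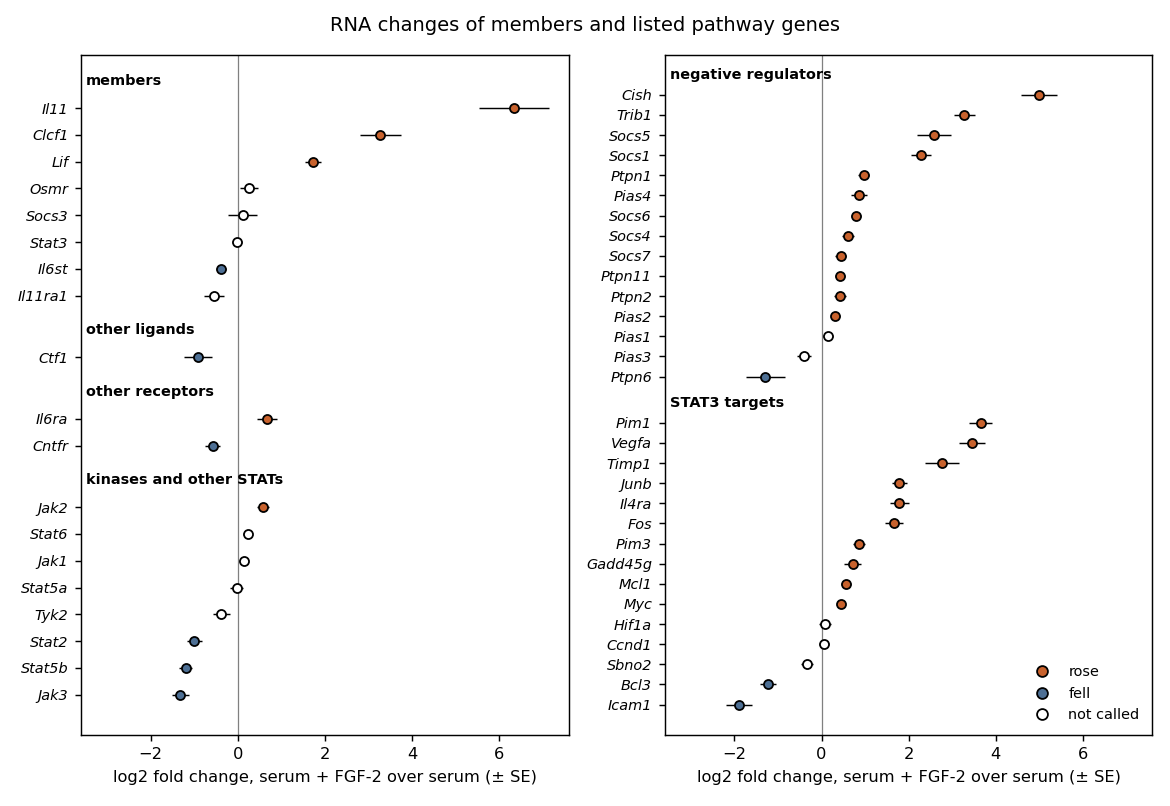
Log2 fold changes of the RNA (serum with FGF-2 over serum, horizontal axis) of the tested members and of tested genes of the 5 pathway lists (1 not shown), as points with bars of 1 SE, filled where called at a false discovery rate of 0.05. Il11 at 6.35 is the highest point, 12 of 15 negative regulators are filled as higher (22.1% of all tested genes rose), and Stat3 and Socs3 lie near 0.

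The genes whose values over the 6 RNA libraries were most like those of Il11 and of Lif were ranked among 8761 genes by the root mean square difference of log2 CPM after each gene's mean was removed. Nearest to Il11 were Muc5ac, Osbpl6, Crhr2, Mustn1 and Btc, at differences of 0.321, 0.573, 0.610, 0.681 and 0.694. All 5 were highest in library 3 within serum, as Il11 was. The ranking used these same libraries, so this likeness follows from the choice of genes. Muc5ac had 0, 0 and 0.166 CPM in serum, which is 1 count, so its place depends on the prior count added before taking logs. Nearest to Lif were Mob3b, Myo10, Pfkfb3, Map2k3 and Cmtm7, at 0.107, 0.125, 0.126, 0.129 and 0.153. Map2k3, a kinase of the p38 pathway, had 179, 167 and 266 CPM in serum and 631, 647 and 820 CPM with FGF-2.

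**Figure D3:**
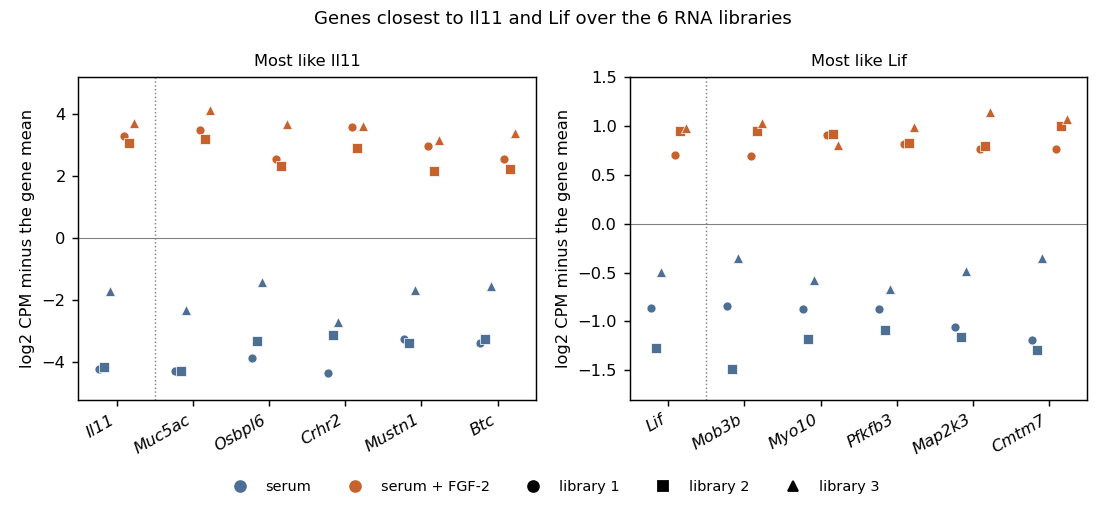
Log2 CPM minus the mean of each gene (vertical axis) in the 3 serum and 3 FGF-2 RNA libraries for Il11 (left), Lif (right) and the 5 genes closest to each. The FGF-2 points lie above 0 and the serum points below 0 for all 12 genes, and in serum library 3 lies nearest to 0 for each. The 5 genes in each panel were chosen by these same values.

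H3K27ac was compared over the 47 regions that the deposited table gives to the members: 13 for Lif, 6 each for Il6st and Socs3, 5 each for Il6 and Osmr, 4 each for Il11 and Stat3 and 2 each for Lifr and Il11ra1. Signals are the authors' normalised read counts per region. Of the 47, 5 rose and 0 fell at a false discovery rate of 0.05 in the authors' deposited table, where 8.33% of all regions rose and 1.64% fell. In 26 of the 47 the groups did not overlap, against 51.5% of all regions. The median log2 fold of the 47 was 0.41 in the authors' deposited table, and 0.11 over all regions. A share of 5 in 47 is near the background, and all 5 regions belong to Il11 and Lif. The H3K27ac serum library 2 had 28.0% of its fragments in regions, against 34.1% to 35.3% in the other libraries. With edgeR on the recovered reads 8 of the 47 rose, where 12.6% of all regions did. The count was 12 without serum library 1 and 6 without serum library 2, with 15.4% and 10.9% of all regions. It was 4 without FGF-2 library 1 and 4 without FGF-2 library 2, with 4.85% and 7.93% of all regions. In each of these fits 1 group had a single library, which was assumed to vary like the other group. The 5 regions of the deposited table are among the 8.

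At Il11 there were 4 small regions, all inside the gene between its outer and inner starts or over the inner one. The region over the inner start, chr7:4777650-4778170, had signals of 10.1 and 10.9 in serum and 37.1 and 37 with FGF-2. Its log2 fold was 1.82 in the authors' deposited table, with a false discovery rate of 0.0205. A peak was called there in both FGF-2 libraries, with the authors' fold enrichment of 12.6 and 11.1, and in neither serum library. The other 3 regions, at 2.27 to 4.53 kb from the outer start, were also higher in both FGF-2 libraries than in either serum library, with signals of 0.84, a single read, to 14.2 in serum and 12 to 32 with FGF-2. Their log2 folds of 1.17 to 2.36 did not pass in the authors' deposited table, with false discovery rates of 0.0842 to 0.267. On recovered reads edgeR called chr7:4780212-4780638 (adjusted p = 0.00624) and chr7:4779757-4780138 (adjusted p = 0.0191) higher, but not chr7:4778375-4778742 (adjusted p = 0.0923). With TMM factors only chr7:4780212-4780638 of these regions passed (edgeR adjusted p = 0.0429). The AP-1 match printed above, at chr7:4778233-4778239, falls in the 204 bases between the region over the inner start and the next one.

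At Lif the regions at the start rose most. The region over the start, chr11:4257374-4259715, had signals of 108.7 and 68.5 in serum and 303 and 236 with FGF-2. Its log2 fold in the authors' deposited table was 1.61, with a false discovery rate of 3.89e-07. Just upstream, chr11:4256495-4257234 went from 12.9 and 7.52 to 40.9 and 59, a log2 fold of 2.29 in the authors' deposited table with a false discovery rate of 0.000977. The AP-1 match of the Lif promoter, at chr11:4257340-4257346, lies in the 139 bases between these regions.

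Further along the Lif gene the signal differed less. A region at 7.96 to 10.5 kb, which the table places over another start of Lif, had signals of 302 and 162 in serum and 216 and 273 with FGF-2, which overlap. Between 12.8 and 19.0 kb, 4 small regions at the end of the gene and after it had log2 folds of -0.63 to 0.65 in the authors' deposited table and did not pass. A wide region at 33.3 to 40.3 kb from the start, chr11:4290916-4297891, rose from 571 and 399 to 778 and 798, a log2 fold of 0.70 with a false discovery rate of 0.00938 in the authors' deposited table. Its neighbour at 40.5 to 46.8 kb, with 556 and 435 against 644 and 678, did not pass (0.41, false discovery rate 0.172 in the authors' deposited table). A region at 50.3 to 52.3 kb rose from 84.7 and 55.2 to 137 and 140, a log2 fold of 0.99 with a false discovery rate of 0.0145 in the authors' deposited table. These distal regions carry the symbol Lif because its start is the nearest one; no file ties them to Lif otherwise.

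Clcf1 names no region in the deposited table. The region over its low-coordinate end, chr19:4207250-4217821, carries the symbol Gm45928, with signals of 1483 and 1240 in serum and 1929 and 1779 with FGF-2. It did not overlap between groups but did not pass in the authors' deposited table (log2 fold 0.45, false discovery rate 0.069). The regions beyond the other end of the gene carry the symbols Gm45928 and Pold4, and they were looked up after the values were seen. All 4 within 25 kb of that end rose. At 29.5 to 30.8 kb from the low-coordinate end, chr19:4243778-4245038 went from 24.9 and 42.6 to 160 and 141, a log2 fold of 2.16 with a false discovery rate of 2.72e-08 in the authors' deposited table. The other 3 had log2 folds of 1.19, 1.12 and 2.06 in the authors' deposited table. Which gene these regions act on was not tested.

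**Figure D4:**
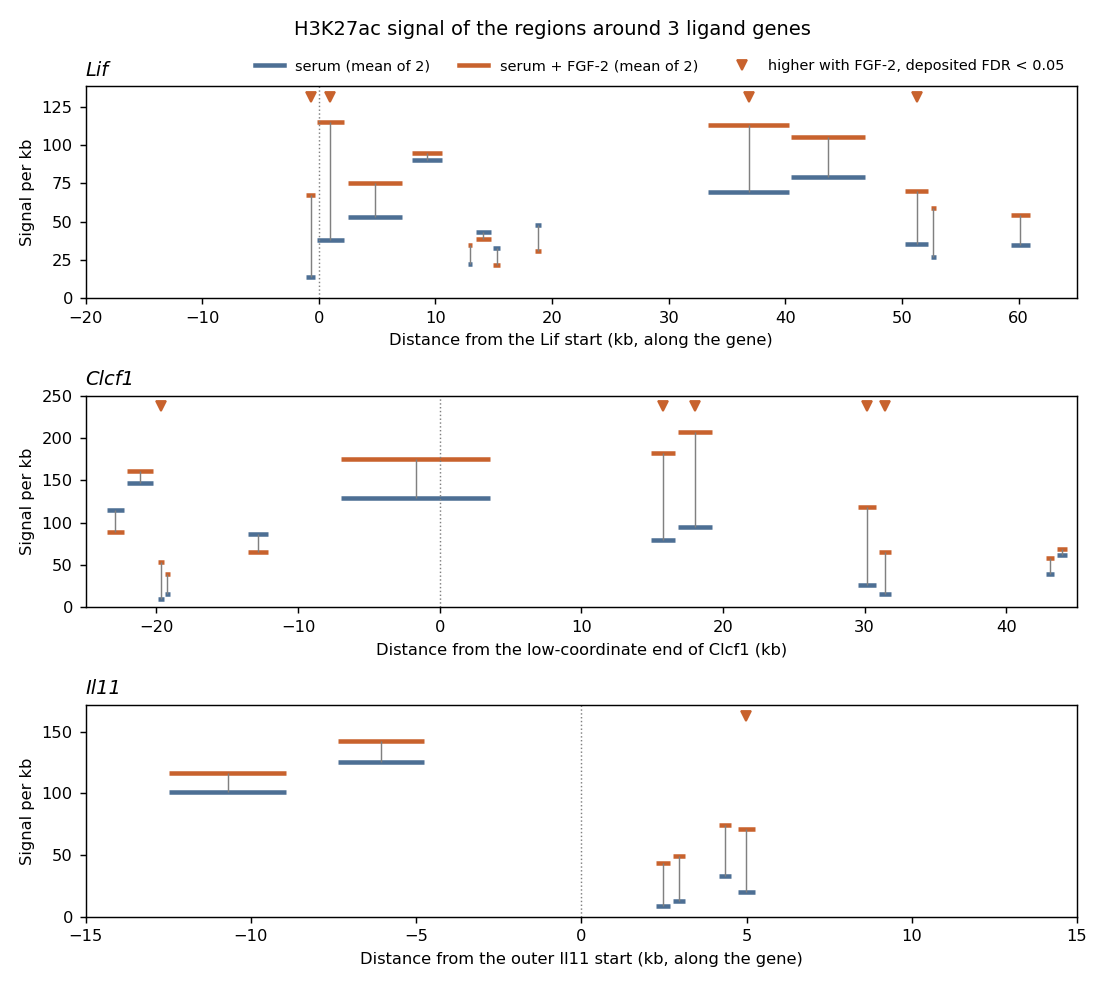
H3K27ac signal per kb (vertical axis, mean of 2 libraries per group) of each region around Lif, Clcf1 and Il11 against the distance in kb from the gene's start or, for Clcf1, its low-coordinate end. Bars span the region, and triangles mark regions called higher, 4 at Lif, 1 at Il11 and 5 in the Clcf1 panel, where the table gives every region to other genes: Gm45928 and Pold4 for the 4 beyond the gene and Ppp1ca for the one at -19.9 kb.

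At the remaining members no region passed in the authors' deposited table. On recovered reads edgeR called a region downstream of Socs3, chr11:117941684-117942089, higher (log2 fold 1.19, adjusted p = 0.0494) and, with TMM factors only, a region in an intron of Stat3, chr11:100912130-100913877, lower (-0.60, adjusted p = 0.0476). The start of Il6st, chr13:112463194-112465796, had signals of 375 and 306 in serum and 329 and 321 with FGF-2, overlapping, beside the slight fall of its RNA. The region nearest the start of Stat3, chr11:100938403-100939466, had 196 and 162 against 194 and 180. Signal in both of these start regions was strong and overlapped between the groups. Of the 4 regions of Stat3 and the 6 of Il6st, 2 and 1 did not overlap, and none passed in the authors' deposited table.

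At Socs3 the stronger region by the start, chr11:117968350-117969241, lies 125 bases from it. Its signals were 124 and 104 in serum and 58.0 and 115 with FGF-2, and FGF-2 library 1 was the low one. The region nearest the start, chr11:117969398-117970008, lies at -32 bases and contains the STAT match printed above. This nearest region had 19.3 and 25.1 in serum and 30.4 and 37 with FGF-2. It did not overlap and did not pass (log2 fold 0.60, false discovery rate 0.597 in the authors' deposited table).

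The regions nearest a start of Lifr, Il11ra1 and Osmr had signals of at most 50.7 in any library. The region nearest a start of Lifr had 11.1 and 7.52 in serum and 10.5 and 17 with FGF-2, that of Il11ra1 31.3 and 27.6 against 43.7 and 31, and that of Osmr 50.7 and 38.4 against 27.6 and 47. All 3 overlapped between the groups. Il6 had no region near its start: the 5 that carry its symbol lie at -125409 to -117714 bases from it, and none passed. Their log2 folds in the authors' deposited table ran from 0.16 to 1.58.

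Among the 63 other pathway genes, 42 had regions within 1 kb of a start, 50 in all, of which 4 rose and 1 fell in the authors' deposited table, with a median log2 fold of 0.065. These shares are near the 8.33% and 1.64% of all regions. Regions of Cish, Socs5 and Timp1, whose RNA also rose, are among the 4, with log2 folds of 2.74, 0.86 and 0.72 in the authors' deposited table and false discovery rates of 0.0233, 0.00417 and 0.0282. The region that fell lies over the start of Fos, with 454 and 384 in serum and 283 and 275 with FGF-2, while Fos RNA rose by 1.67 ± 0.21 on the log2 scale.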

How the data were processed

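RNA was measured in 3 libraries per group and H3K27ac in 2 per group, grouped by their treatment label. Per the submitters' processing notes the tools were STAR 2.5.2a, HTSeq 0.10.0, SAMtools 1.1, bedtools 2.15.0, MACS2 2.2.6, DiffBind, ChIPseeker and DESeq2, with the build mm10. The authors deposited raw read counts per gene symbol (annotation and strand handling: not given in the sources used here), which leaves overlapping genes uncertain. The authors' deposited DESeq2 table also holds a mean signal and a test score per gene, not printed here. Reads listed outside genes, 37.0% to 43.2% of a library, were left out. Peaks were called per library against its own input with a q cutoff of 0.01, per the file headers, which give fold enrichment (a ratio) and −log10 q. The ChIP libraries held 11840994 to 14156846 fragments and the inputs 12241177 to 110273836. The authors' deposited region table gives a normalised signal per library, log2 folds, p-values and false discovery rates. All signal values under 100 came out as whole reads within 0.02 reads (100%) after division by a factor per library. Whether input reads were subtracted before this is not stated in any source used, and recovered reads may be net of input.

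Counts were tested with edgeR 4.0.16 (quasi-likelihood, TMM, filterByExpr) under R 4.3.3, and p-values were Benjamini-Hochberg adjusted over 10374 genes at 0.05. CPM values use TMM library sizes, and fold changes divide FGF-2 by serum alone. DESeq2 1.42.0 and limma-voom (limma 3.58.1) were alternatives, with other scalings, filters and thresholds, a replicate block and each library left out. DESeq2 on the deposited counts gave the log2 fold changes of the authors' deposited table within 1.62e-10. edgeR was also run on the recovered ChIP reads. Replicate libraries differed by more than sampling noise, so each was kept. Scripts were tested on simulated data first.

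The text names all 10 members and, per pathway list, up to 3 called genes each way with the largest change; Osm, Jak1, Tyk2, Socs1, Junb and Fos are named beyond this rule, after their values were seen. Some genes that the rule takes are left out of the text. It also names the 5 genes most like Il11 and Lif at a mean of at least 5 CPM (prior count 0.5), each called region and the one nearest a start. Members and lists were chosen with earlier results of these data known. RefSeq tables (GRCm38.p6) gave positions and promoters; those of Clcf1 were not used here for strand or promoter.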

Additional observations from a re-analysis of the deposited data

How the results depend on the processing

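Il11, Lif and Clcf1 rose under every alternative run. Il11 was at 6.94 with limma-voom. The number of members that fell was 1; it became 2 under the upper quartile, 3 under library totals alone and 0 at a false discovery rate of 0.01, and ran from 0 (without serum library 2) to 1 with single libraries left out. The median log2 fold change of all genes was -0.023 and moved to -0.16 under the upper quartile and -0.36 under library totals. Of the pathway genes, 25 rose and 8 fell, beside 22.1% and 24.2% of all tested genes. With library totals 15 rose, and 5 fell at a false discovery rate of 0.01. Members that did not pass changed sign: Stat3 to 0.00075 with DESeq2, 0.0012 with RLE scaling, and between -0.095 and 0.076 with single libraries left out (0.076 without serum library 2, 0.012 without FGF-2 library 2); Socs3 to -0.033 with upper-quartile scaling, -0.24 with library totals and between -0.18 (without serum library 3) and 0.51 with single libraries left out; and Osmr to -0.083 with library totals. The cause was not tested.

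Same-numbered RNA libraries deviated together with correlations of -0.087, 0.075 and 0.369, and only number 3 correlated best with its own number, so the numbers were not taken as pairs. With the replicate number as a block, 3 members rose and 1 fell and 24 and 7 pathway genes rose and fell, with Il6ra and Ctf1 no longer called (edgeR adjusted p = 0.126 and 0.0533); for recovered H3K27ac reads the block gave 5 and 0 regions.

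Of the 47 regions, 5 rose, and 3 did at a false discovery rate of 0.01. edgeR on recovered reads gave 8 that rose and 0 that fell (12.6% and 3.65% of all regions), and with TMM factors, chosen after seeing the data, 7 and 1 (10.9% and 6.13%). Leaving out 1 ChIP library, which takes the spread from the other group alone, gave 4 to 12 that rose and 0 to 2 that fell, the highest counts being 12 without serum library 1 and 2 without serum library 2. A peak in all 4 libraries was found at 28 regions, at 14 with −log10 q of at least 10 and at 17 with 50% of the region covered. Depth limits Il6 and Lifr, whose counts could not show a difference of the size seen for Lif.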

Other observations

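Some listed genes had acetylated starts and almost no RNA counts. Bcl2l1, a survival gene, had 2 counts over all 6 RNA libraries beside a mean H3K27ac signal of 244 over its start, and Bcl6, a repressor, had 6 counts and a signal of 508. Of 6677 genes with a region over the start and a mean signal of at least 75, 721 (10.8%) had at most 10 counts in all. Overlap with other genes in the counting was not tested. These genes were looked up after their values were seen.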
